A study of Mus musculus with 10 samples.

Results

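Glucose transporters and glycolytic enzymes were followed across 3 groups of mouse cells on Affymetrix GeneChip arrays, which read a transcript with 1 or more probe sets. The gene list held 10 genes: the transporters Slc2a1 and Slc2a3, the hexokinases Hk1 and Hk2, the phosphofructokinases Pfkl and Pfkp, the lactate dehydrogenases Ldha and Ldhb, the enolase Eno1 and the pyruvate dehydrogenase kinase Pdk1. A probe set was taken where the platform's annotation names exactly that gene and no other. This gave 25 probe sets for 9 of the 10 genes, out of 13251 genes measured, and Eno1 was not analysed here. All 25 probe sets passed the filter on dim signals, which kept the 27505 probe sets whose signal exceeded the median of its array in 2 or more of the 10 arrays.

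The first group, AG-haESC, were haploid embryonic stem cells from blastocysts whose only genome was paternal, of C57BL/6J background, with 1 array for each of 5 lines at passages 12 to 15. Lines AGH-OG-1 to AGH-OG-4, which are AG-haESC replicates 1, 2, 4 and 5, carried an Oct4-EGFP transgene, and line AGH-EG-1, which is AG-haESC replicate 3, carried an Actin-EGFP transgene. The second group, E14, was a diploid line of male wild-type embryonic stem cells (129/Sv) at passage 17, and all its 3 arrays are of this line. The third group, MEF, were wild-type fibroblasts of B6D2F1 embryos, male and at day 13.5, at passage 2, with 2 arrays. All groups were sorted by DNA content after incubation with the dye Hoechst 33342 (15 µg/ml), taking the 1n peak for AG-haESC and the 2n peak for E14 and MEF. AG-haESC grew on feeder cells with the inhibitors CHIR99021 and PD0325901, while the labels name no medium for E14 and MEF. Ploidy, parental genome, strain, transgene and passage all differ between AG-haESC and E14 and cannot be told apart. The replicates of E14 hold no spread between diploid lines, and whether the MEF arrays came from separate embryos is not given, so p-values measure the spread between these arrays only.

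Glycolysis turns glucose into pyruvate. Transporters of the Slc2a family let glucose into the cell, hexokinases trap it by phosphorylation, phosphofructokinase commits it to the pathway, and lactate dehydrogenase interconverts pyruvate and lactate. Pdk1 phosphorylates and switches off pyruvate dehydrogenase, the enzyme complex that feeds pyruvate into mitochondria. Pluripotent stem cells are known for active glycolysis, and several of these genes are known targets of the hypoxia-inducible factors (HIF) and of MYC.

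Signals are MAS5 values taken to log2, and differences are in log2 units with the standard error of the fit. A probe set or gene is called higher or lower where the adjusted p of the limma fit lay below 0.05 and the difference was at least 2-fold. The array medians lay between 55.9 and 68.0 on the linear scale, or 5.81 to 6.09 on the log2 scale, and a signal near or below them is mostly background. All 8 pluripotency markers checked lay above the median in every AG-haESC and E14 array, and 7 of the 8 lay below it in both MEF arrays. The 9 fibroblast markers measured summed to 2069 to 7422 linear units in AG-haESC, 988 to 1459 in E14 and 110746 to 134385 in MEF. The 6 muscle markers summed to 4785 to 5127 in MEF and the 6 macrophage markers to 4311 to 4767, against at most 635 and 568 in any stem cell array. In bulk RNA, fewer cells of a type and less RNA per cell cannot be told apart. E14 replicate 3 stood apart from the other E14 arrays, with the lowest signal of the 3 for 50.1% of genes and an array weight of 0.24 against 2.65 and 1.06, so calls between AG-haESC and E14 that change without it are given beside the results.

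Between haploid and diploid stem cells, 3 of the 9 genes were called lower in AG-haESC and none higher. These were Pfkl, Ldhb and Pdk1. Over all 13251 genes, 3.61% were called lower and 4.38% higher. Among probe sets, 9 of 25 were called lower and none higher, against 7.26% of all probe sets called in either direction. These 9 probe sets read only those 3 genes, and probe sets of the same gene are repeat readings rather than independent ones. The 9 genes had a median difference of -0.27, against -0.08 over all genes. Without AG-haESC replicate 3 the genes called lower numbered 2 and the probe sets 7, the calls of Pfkl being lost. They were also lost without AG-haESC replicate 1 or 2 or E14 replicate 1 or 2. Averaging the probe sets of each gene before the fit left 1 gene called lower, Ldhb. AG-haESC also held the higher sum of fibroblast markers. Bright collagens weigh most in it, with means in AG-haESC and E14 of 10.81 and 8.12 for Col1a2 and 9.68 and 7.54 for Col3a1. Not every marker was higher, as Pdgfra was nearly level (6.42 and 6.39) and Pdgfrb was lower in AG-haESC (7.32 and 8.05). The part of the higher sum in the differences from E14 was not tested.

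Against fibroblasts the genes mostly lay higher in both stem cell groups. In AG-haESC, 6 of the 9 genes were called higher than in MEF and none lower, where 19.6% of all genes were called higher and 22.5% lower. The 6 were Slc2a1, Slc2a3, Hk2, Pfkp, Ldhb and Pdk1. In E14, 7 of 9 were called higher and none lower, against 20.8% and 21.1% of all genes, and these were Slc2a1, Slc2a3, Hk2, Pfkl, Pfkp, Ldhb and Pdk1. By probe set, 17 of 25 were called higher in AG-haESC than in MEF, where 39.2% of all probe sets were called in either direction, and 20 of 25 in E14, where 38.9% were. The median difference from MEF was 1.61 for the 9 genes in AG-haESC and 2.24 in E14, against 0.0045 and 0.08 over all genes. These comparisons share arrays, so their counts are not independent of each other. Probe sets of the same gene are repeat readings, so the counts of probe sets add no separate genes.

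**Figure D1:**
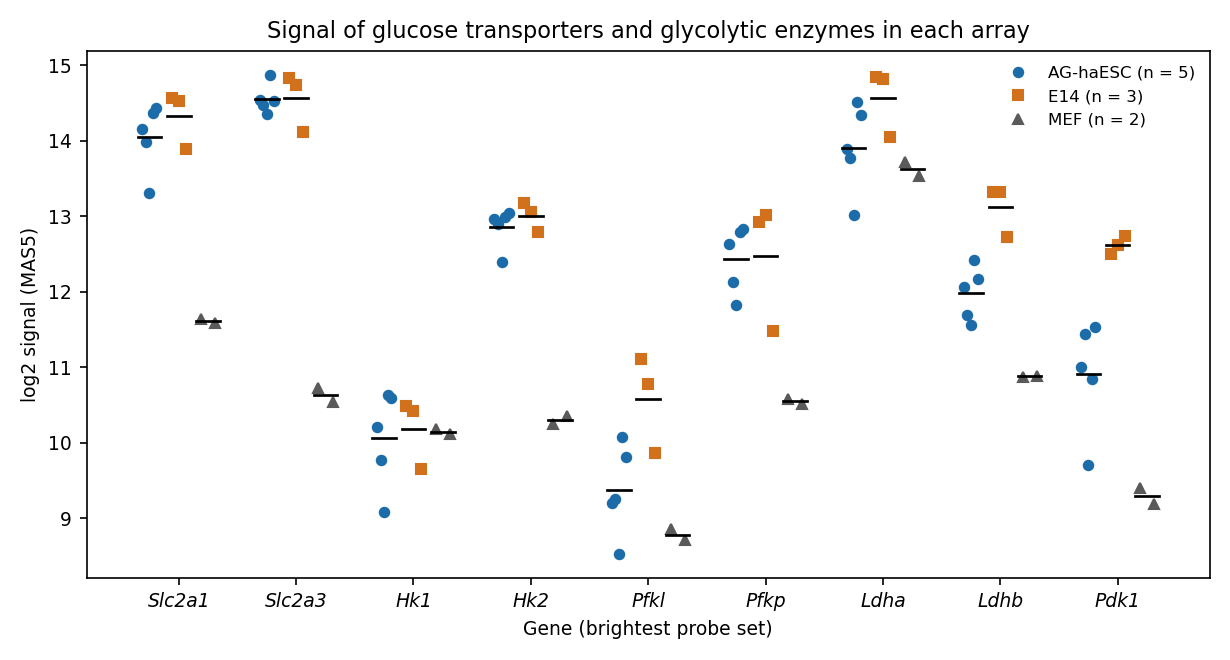
Log2 MAS5 signal (vertical axis) of the brightest probe set of each of the 9 genes in every array, with circles for AG-haESC (n = 5), squares for E14 (n = 3), triangles for MEF (n = 2) and a bar at each group mean. MEF lie far lower for Slc2a1, Slc2a3, Hk2, Pfkp, Ldhb and Pdk1, all groups overlap for Hk1, and AG-haESC lie below E14 without overlap for Ldhb and Pdk1.

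The promoter windows of the 3 genes called lower in AG-haESC, with that of Ldha as the partner of Ldhb, show whether letters of the HIF recognition core stand near their starts. Each is the 250 bases upstream of the outermost start listed by RefSeq (GRCm38.p6), 5′ to 3′ on the gene's strand, in lower case with the core (ACGTG or GCGTG, on either strand) in capitals. The windows are chr10:78009808-78010057 on the minus strand for Pfkl, chr7:46845554-46845803 on the plus strand for Ldha, chr6:142507958-142508207 on the minus strand for Ldhb and chr2:71872974-71873223 on the plus strand for Pdk1.
Pfkl: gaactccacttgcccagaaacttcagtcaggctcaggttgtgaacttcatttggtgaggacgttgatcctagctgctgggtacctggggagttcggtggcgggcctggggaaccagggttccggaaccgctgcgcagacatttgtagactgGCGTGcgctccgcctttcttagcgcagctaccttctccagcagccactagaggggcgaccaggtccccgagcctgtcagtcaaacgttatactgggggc
Ldha: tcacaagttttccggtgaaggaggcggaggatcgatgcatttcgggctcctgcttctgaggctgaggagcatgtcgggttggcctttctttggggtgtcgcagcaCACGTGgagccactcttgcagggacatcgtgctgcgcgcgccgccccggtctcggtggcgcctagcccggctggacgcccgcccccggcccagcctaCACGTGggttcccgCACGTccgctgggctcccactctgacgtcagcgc
Ldhb: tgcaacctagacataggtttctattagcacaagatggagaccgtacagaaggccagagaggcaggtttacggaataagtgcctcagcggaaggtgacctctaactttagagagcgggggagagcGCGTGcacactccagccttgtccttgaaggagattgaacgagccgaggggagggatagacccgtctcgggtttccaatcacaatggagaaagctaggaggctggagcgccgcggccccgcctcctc
Pdk1: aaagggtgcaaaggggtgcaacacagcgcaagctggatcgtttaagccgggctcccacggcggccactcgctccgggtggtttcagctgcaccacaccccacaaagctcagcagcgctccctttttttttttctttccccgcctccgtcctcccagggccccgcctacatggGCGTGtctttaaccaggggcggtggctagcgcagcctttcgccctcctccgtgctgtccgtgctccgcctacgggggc
Ldha held 5 matches in 3 stretches, and 2 of these stretches are the palindrome CACGTG, the E-box that MYC factors bind, which contains the core on both strands. Pfkl, Ldhb and Pdk1 held 1 match each, starting 99, 126 and 78 bases upstream of the start. Genes not called between AG-haESC and E14 held more in windows not printed here, with 3 matches for Pfkp, 2 for Slc2a1 and 2 for Hk2. Among the 8 measured genes with a window, 7 held the core and Hk1 did not, while 38.6% of all 32851 windows held it and 6.02% held the E-box. The first count takes only the outermost start of each gene. The shares over all windows take every start listed, whether or not the gene was measured here, so these figures cannot show an excess. A match describes letters and is not evidence of binding. Whether the matches bear on the differences between groups was not tested.

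Slc2a1, the widely expressed glucose transporter GLUT1, was read by 3 probe sets. On the brightest, 1434773_a_at, the log2 signal was 14.15, 13.98, 13.31, 14.36 and 14.43 in AG-haESC replicates 1 to 5, 14.56, 14.52 and 13.88 in E14 replicates 1 to 3, and 11.64 and 11.59 in the MEF arrays. Every stem cell array lay above both MEF arrays, while AG-haESC and E14 overlapped. The difference from MEF was 2.43 ± 0.27 (SE; 5.40-fold, adjusted p = 1.61e-05) in AG-haESC and 2.71 ± 0.29 (6.54-fold, adjusted p = 1.68e-05) in E14. Between AG-haESC and E14 it was -0.27 ± 0.23 (adjusted p = 0.494), with a 95% interval from -0.79 to 0.24. The other probe sets, 1426599_a_at and 1426600_at, gave -0.39 and -0.49 against E14 and 2.57 and 2.77 against MEF. All 3 followed each other across the 10 arrays, with Pearson's r from 0.993 to 0.998.

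Slc2a3 encodes GLUT3, a transporter with a high affinity for glucose. Probe set 1437052_s_at, the brightest of its 4, read 14.53, 14.47, 14.36, 14.87 and 14.52 in AG-haESC, 14.83, 14.73 and 14.11 in E14, and 10.72 and 10.54 in MEF. No stem cell array came near the MEF arrays, and on the brightest probe sets this gap was the widest of the 9 genes. The difference was 3.92 ± 0.19 (15.2-fold, adjusted p = 2.81e-08) for AG-haESC against MEF and 3.93 ± 0.20 (15.2-fold, adjusted p = 7.55e-08) for E14 against MEF. AG-haESC and E14 differed by -0.0074 ± 0.16, with a 95% interval from -0.36 to 0.35 and an adjusted p of 0.985. The sign of that small difference turned to 0.07 under quantile normalization.

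Probe set 1455898_x_at of Slc2a3 gave 4.53 and 4.61 against MEF and -0.09 between the stem cell groups. The remaining Slc2a3 probe sets were dimmer and lay below the median in both MEF arrays, so that their folds are lower bounds, with MEF put at the array medians. For 1421924_at, AG-haESC were at least 10.3-fold and E14 at least 10.6-fold higher than MEF, and for 1427770_a_at at least 6.61-fold and 6.01-fold. On all 4 the intervals of AG-haESC against E14 included 0.

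Hexokinase 2 (Hk2), the inducible hexokinase that binds mitochondria, was read by 1422612_at alone. It measured 12.96, 12.90, 12.39, 12.98 and 13.04 in AG-haESC, 13.17, 13.06 and 12.78 in E14, and 10.24 and 10.36 in MEF. Both stem cell groups lay above MEF without overlap, by 2.56 ± 0.17 (5.88-fold, adjusted p = 4.04e-07) for AG-haESC and 2.71 ± 0.19 (6.52-fold, adjusted p = 6.67e-07) for E14. AG-haESC against E14 gave -0.15 ± 0.15 (adjusted p = 0.576; 95% interval -0.48 to 0.18).

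Hexokinase 1 (Hk1), the form found in most adult tissues, did not share this pattern. Its brighter probe set 1437974_a_at read 10.20, 9.77, 9.08, 10.63 and 10.58 in AG-haESC, 10.48, 10.42 and 9.65 in E14, and 10.18 and 10.11 in MEF. All 3 groups overlapped, and no comparison passed the threshold. The differences were -0.13 ± 0.33 for AG-haESC against E14 (95% interval -0.85 to 0.59), -0.09 ± 0.38 for AG-haESC against MEF (-0.91 to 0.74) and 0.04 ± 0.41 for E14 against MEF (-0.86 to 0.94). The second probe set, 1420901_a_at, lay close to the array medians at 6.17 to 7.48 in AG-haESC, 5.55 to 7.06 in E14 and 6.45 to 6.81 in MEF, and gave 0.37, 0.17 and -0.20 in the same comparisons. The signs of these Hk1 differences turned under several settings, and r between the probe sets was 0.747.

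Pfkl, the liver-type subunit of phosphofructokinase, was called lower in AG-haESC than in E14. Probe set 1439148_a_at read 9.20, 9.25, 8.53, 10.07 and 9.81 in AG-haESC, 11.11, 10.78 and 9.86 in E14, and 8.85 and 8.71 in MEF. AG-haESC replicate 4 lay above E14 replicate 3, so the groups overlapped by that pair of arrays. The difference was -1.21 ± 0.35 (2.31-fold lower, adjusted p = 0.0412), and 1450269_a_at gave -1.21 ± 0.33 (adjusted p = 0.0334). Both calls were lost without AG-haESC replicate 1, 2 or 3 or E14 replicate 1 or 2, with adjusted p from 0.0691 to 0.17 for 1439148_a_at and from 0.0623 to 0.146 for 1450269_a_at. With no variance trend in the fit the adjusted p were 0.0778 and 0.0611, and averaging the 3 Pfkl probe sets before the fit gave -0.95 (adjusted p = 0.024), under 2-fold. A fit of AG-haESC and E14 alone gave an adjusted p of 0.0602 for 1439148_a_at. Without E14 replicate 3 the differences were -1.57 (adjusted p = 0.00925) and -1.58 (adjusted p = 0.00501).

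Against MEF, Pfkl in AG-haESC differed by 0.59 ± 0.40 (adjusted p = 0.228; 95% interval -0.27 to 1.46), and in E14 it was higher by 1.80 ± 0.43 (3.49-fold, adjusted p = 0.00453). For 1450269_a_at the same comparisons gave 0.40 and 1.61, and the call in E14 was lost without MEF replicate 2 (adjusted p = 0.0643). The third probe set of Pfkl, 1453541_at, did not follow the others, with r of 0.278 and 0.186. It was dimmer, at 6.86 to 7.67 in AG-haESC, 7.35 to 8.30 in E14 and 7.53 to 7.75 in MEF. Its differences of -0.43, -0.32 and 0.12 for AG-haESC against E14, AG-haESC against MEF and E14 against MEF did not pass the threshold.

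The platelet-type subunit, Pfkp, was high in both stem cell groups. On 1416069_at it read 12.63, 12.12, 11.82, 12.78 and 12.83 in AG-haESC, 12.93, 13.01 and 11.48 in E14, and 10.58 and 10.51 in MEF. E14 replicate 3 was the lowest stem cell array, and even it lay above both MEF arrays. Pfkp exceeded MEF by 1.89 ± 0.38 (3.71-fold, adjusted p = 0.00142) in AG-haESC and 1.93 ± 0.42 (3.81-fold, adjusted p = 0.00244) in E14. Between AG-haESC and E14 the difference was -0.04 ± 0.33 (adjusted p = 0.959; 95% interval -0.77 to 0.69), and it was -0.53 without E14 replicate 3 (adjusted p = 0.154).

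Of the dimmer Pfkp probe sets, 1430634_a_at gave 0.29 between AG-haESC and E14 and 1.43 and 1.14 against MEF, and 1437759_at gave -0.43, 2.07 and 2.50. All 3 probe sets were called higher in both stem cell groups than in MEF. The call of 1430634_a_at for E14 was lost without E14 replicate 1 (adjusted p = 0.0965), MEF replicate 1 (0.0958) or MEF replicate 2 (0.118), and with a pseudocount of 32 the difference fell just under 2-fold.

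Ldha, the lactate dehydrogenase subunit that favours lactate formation, was bright in every array. Probe set 1419737_a_at read 13.88, 13.77, 13.02, 14.51 and 14.34 in AG-haESC, 14.84, 14.82 and 14.04 in E14, and 13.71 and 13.53 in MEF. AG-haESC overlapped both other groups, while all E14 arrays lay above MEF. The difference was -0.66 ± 0.29 for AG-haESC against E14 (adjusted p = 0.169; 95% interval -1.31 to -0.02) and 0.28 ± 0.34 for AG-haESC against MEF (adjusted p = 0.5; -0.45 to 1.02). E14 exceeded MEF by 0.95 ± 0.37 (1.93-fold, adjusted p = 0.0488), under the 2-fold limit, and by 1.21 without E14 replicate 3 (adjusted p = 0.016), which passed it, as did array weights (1.17).

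Ldhb, the subunit known from heart and other oxidative tissues, was called in all 3 comparisons. On 1416183_a_at it read 12.06, 11.70, 11.56, 12.42 and 12.17 in AG-haESC, 13.32, 13.31 and 12.73 in E14, and 10.86 and 10.89 in MEF. The groups formed an order without overlap, with E14 highest and MEF lowest. AG-haESC were lower than E14, with a difference of -1.14 ± 0.20 (2.20-fold, adjusted p = 0.00379). They exceeded MEF by 1.10 ± 0.23 (2.15-fold, adjusted p = 0.00173), and E14 exceeded MEF by 2.24 ± 0.25 (4.74-fold, adjusted p = 2.17e-05).

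All 4 Ldhb probe sets told the same. For AG-haESC against E14 they ranged from -1.25 to -1.14, with adjusted p from 0.00227 to 0.00436, and each call held with any array left out. Against MEF they ranged from 1.09 to 1.19 in AG-haESC and from 2.24 to 2.39 in E14. The AG-haESC differences from MEF lie close to the 2-fold limit, and without AG-haESC replicate 4 they were 1.00, 1.00 and 0.99 on 1416183_a_at, 1455235_x_at and 1448237_x_at, which ended those calls on size with adjusted p of 0.00255, 0.0036 and 0.0024. Pearson's r between Ldhb probe sets ran from 0.991 to 0.998.

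Pdk1 was read by 4 probe sets, of which 3 told the same and 1 did not. The brightest, 1423747_a_at, read 11.00, 11.43, 9.71, 10.85 and 11.54 in AG-haESC, 12.50, 12.62 and 12.74 in E14, and 9.40 and 9.19 in MEF. The E14 arrays lay close together (SD 0.12) and above every AG-haESC array, and all AG-haESC arrays lay above MEF. AG-haESC were lower than E14, with a difference of -1.71 ± 0.33 (3.28-fold, adjusted p = 0.00627). They were higher than MEF by 1.61 ± 0.38 (3.05-fold, adjusted p = 0.00371), and E14 were higher than MEF by 3.32 ± 0.41 (10.01-fold, adjusted p = 4.78e-05).

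Probe set 1423748_at of Pdk1 read 10.01, 10.50, 8.82, 10.57 and 10.56 in AG-haESC, 11.71, 11.92 and 12.001 in E14, and 7.98 and 8.24 in MEF. It kept the same order of groups without overlap. The differences were -1.78 ± 0.34 (adjusted p = 0.00618) between AG-haESC and E14, 1.98 (adjusted p = 0.00126) between AG-haESC and MEF and 3.76 (adjusted p = 2.5e-05) between E14 and MEF. On 1435836_at the signals were 8.28, 8.44, 7.03, 8.26 and 9.01 in AG-haESC, 10.62, 10.63 and 10.16 in E14, and 8.06 and 7.73 in MEF. Here AG-haESC were again lower than E14, with -2.27 ± 0.35 (4.81-fold, adjusted p = 0.00182), but they overlapped MEF, with 0.31 ± 0.40 (adjusted p = 0.548; 95% interval -0.58 to 1.19). On these 3 probe sets the calls against E14 held with any array left out, the difference being -1.41 to -1.97 without AG-haESC replicate 3, the line with the least Pdk1.

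The last Pdk1 probe set, 1434974_at, ran the other way and was dim. It read 3.76, 5.63, 4.68, 7.15 and 6.37 in AG-haESC, -0.60, 1.71 and 5.28 in E14, and 5.19 and 3.80 in MEF. Only AG-haESC replicates 4 and 5 exceeded their array medians, and all E14 and MEF arrays were below theirs. The probe set passed the filter on dim signals only through those AG-haESC arrays, so the filter favoured a higher AG-haESC signal. The difference between AG-haESC and E14 was 3.39 ± 1.19 (adjusted p = 0.0877; 95% interval 0.79 to 5.99), with no bound on the fold because the AG-haESC mean was itself below the medians. Without E14 replicate 3 it was 4.96 (adjusted p = 0.00827), which is a call, as it was with array weights (4.99, adjusted p = 0.00217). It shrank to 0.96 (adjusted p = 0.15) with a pseudocount of 32 and to 0.21 (adjusted p = 0.662) with a floor at the array medians. E14 against MEF gave -2.36 ± 1.49 (adjusted p = 0.206), with both groups below the medians. This became a call without E14 replicate 3 (-3.94, adjusted p = 0.0196) and with array weights (-4.12, adjusted p = 0.00355), but was -0.37 (adjusted p = 0.577) with the pseudocount of 32 and 0.054 (adjusted p = 0.901) with the floor. Its r with the other Pdk1 probe sets ran from -0.558 to -0.306 over the 10 arrays, while the other 3 followed each other with r from 0.867 to 0.984. When all 4 were averaged before the fit, the Pdk1 difference was -0.59 (adjusted p = 0.376). Which part of the transcript each probe set reads was not analysed here.

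**Figure D2:**
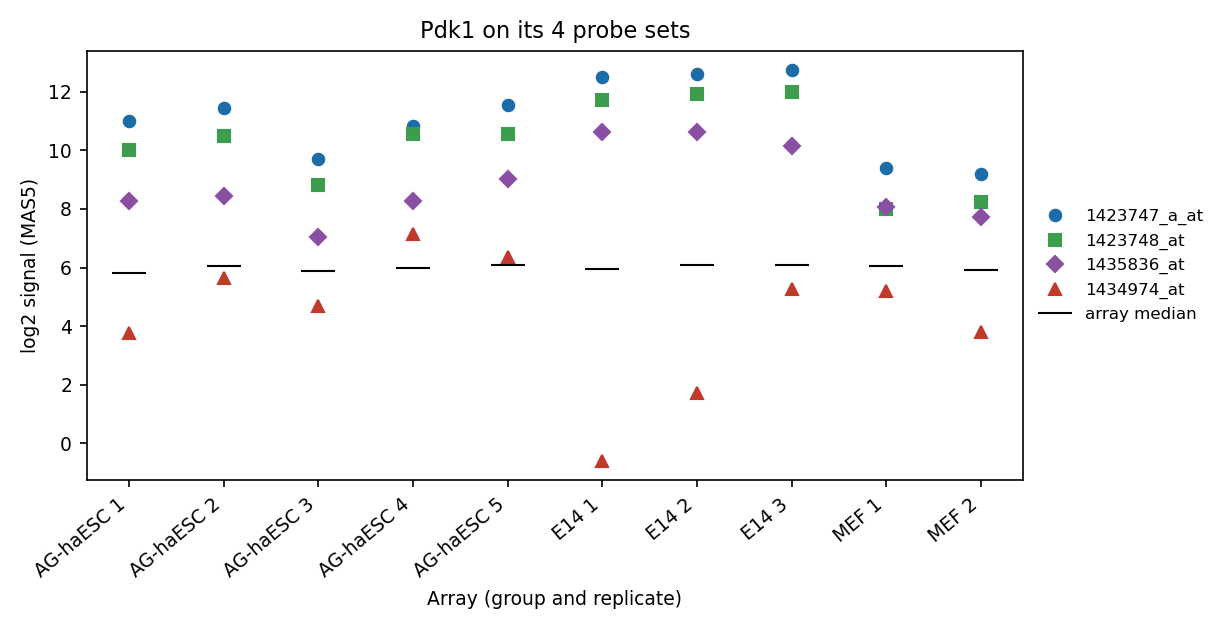
Log2 MAS5 signal (vertical axis) of the 4 Pdk1 probe sets in each of the 10 arrays, with a horizontal bar at each array's median. The circles, squares and diamonds are highest in E14, while 1434974_at (triangles) exceeds the array median in AG-haESC replicates 4 and 5 only and falls to -0.60 in E14 replicate 1.

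**Figure D3:**
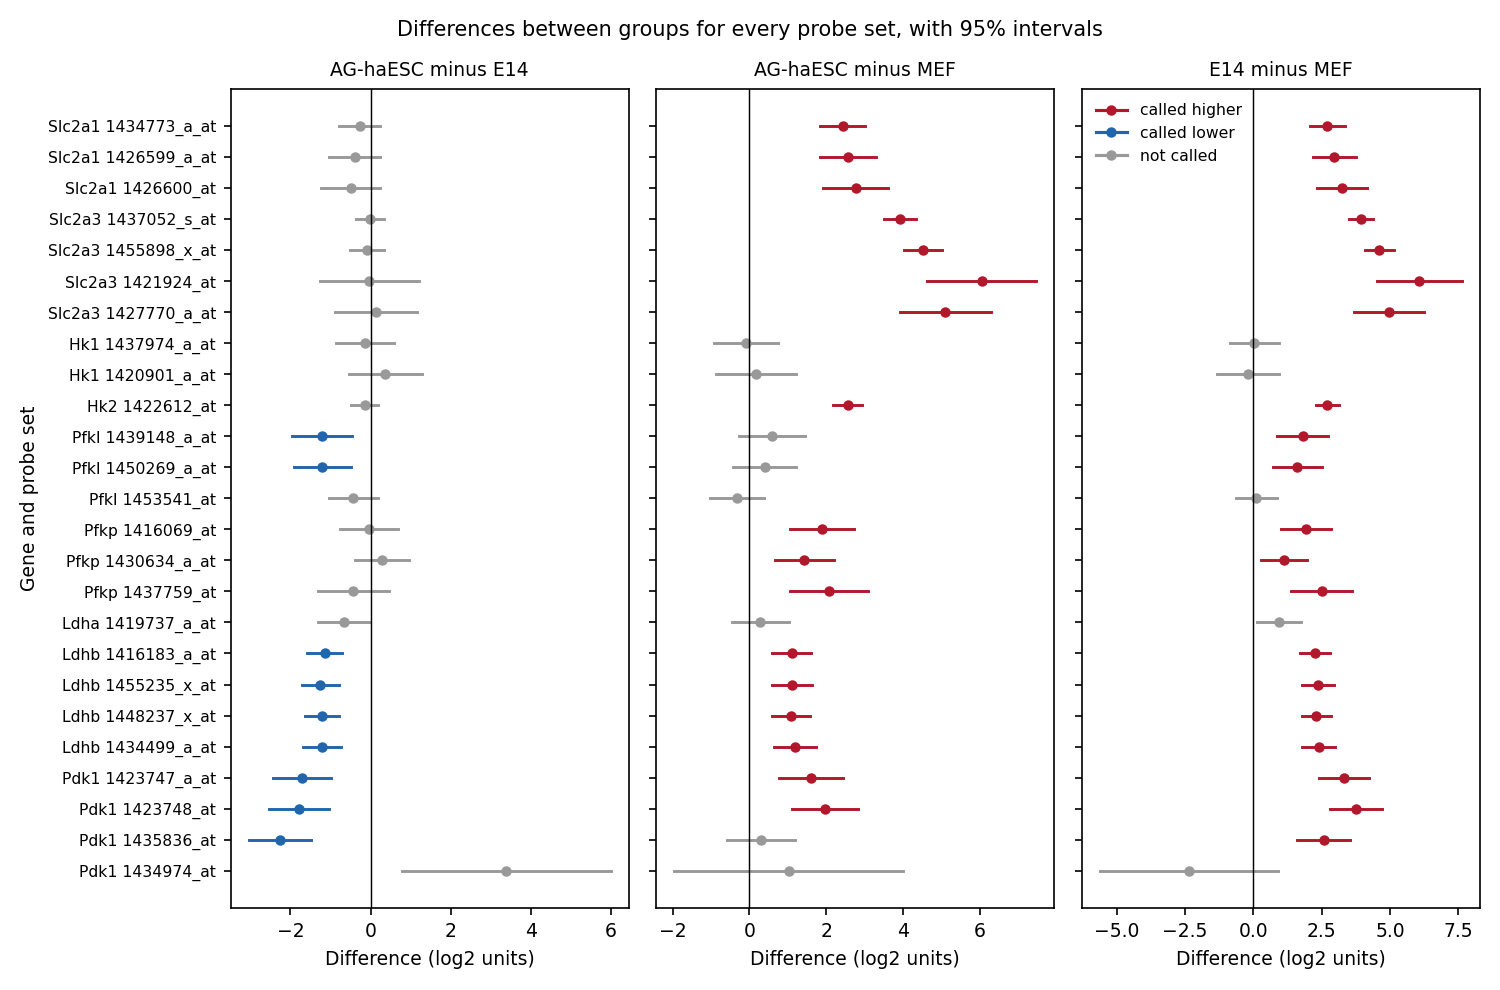
Differences in log2 units (horizontal axis, with its own range in each panel) for all 25 probe sets in the 3 comparisons, with 95% intervals from the limma fit, in red where called higher, blue where called lower and grey where not called. Between AG-haESC and E14 the called probe sets are those of Ldhb, of Pfkl except 1453541_at and of Pdk1 except 1434974_at. Against MEF both Hk1 probe sets and Ldha stay uncalled in either panel. The widest Slc2a3 differences are fitted values of probe sets that are dim in MEF.

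Pairs of enzymes or transporters of the same step were compared within each array, by subtracting the log2 signals of their brightest probe sets. Since different probe sets bind with different strength, only the change of this value between groups is read, with no test. Slc2a3 minus Slc2a1 was 0.50 ± 0.35 in AG-haESC, 0.24 ± 0.031 in E14 and -0.99 ± 0.090 in MEF (mean ± SD), the MEF value being below those of all stem cell arrays. Hk2 minus Hk1 was 2.80 ± 0.42, 2.82 ± 0.27 and 0.16 ± 0.13 in the same order, nearly equal in the stem cell groups. For Pfkp minus Pfkl the means were 3.06 ± 0.30 in AG-haESC, 1.89 ± 0.31 in E14 and 1.77 ± 0.050 in MEF, and here AG-haESC, with values from 2.71 to 3.43, lay above all other arrays. This holds for Pfkl on 1439148_a_at, which 1453541_at did not follow (r of 0.278). Ldhb minus Ldha was -1.92 ± 0.29 in AG-haESC, -1.45 ± 0.11 in E14 and -2.74 ± 0.15 in MEF, so that the AG-haESC mean lay between the others, while AG-haESC replicate 3, at -1.46, lay above E14 replicates 1 and 2.

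**Figure D4:**
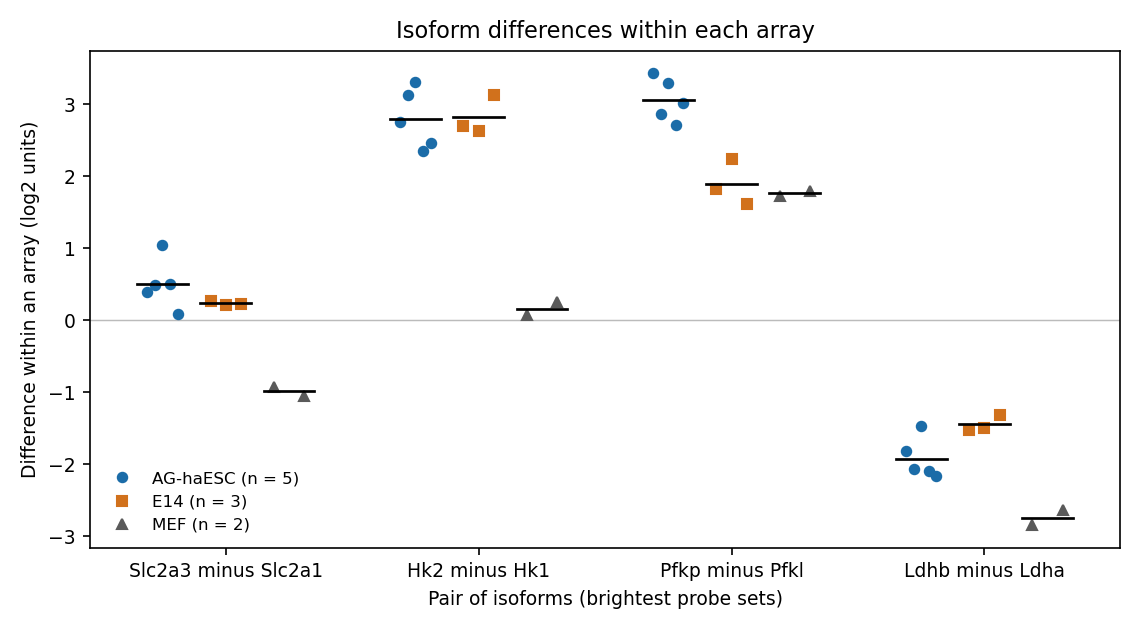
Difference in log2 signal within each array (vertical axis) for 4 pairs of genes of the same step, with a bar at each group mean (AG-haESC n = 5, E14 n = 3, MEF n = 2). MEF lie below all stem cell arrays for Slc2a3 minus Slc2a1, Hk2 minus Hk1 and Ldhb minus Ldha. AG-haESC stand apart for Pfkp minus Pfkl, at 2.71 to 3.43, on the brightest probe set of each gene.

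The genes had a larger median SD among AG-haESC lines than genes in general. The median SD on the brightest probe sets was 0.45 for the 9 genes and 0.29 for all genes in AG-haESC, 0.39 and 0.33 in E14, and 0.080 and 0.13 in MEF. AG-haESC replicate 3, the Actin-EGFP line, had the lowest signal of the 5 lines for 9 of 9 genes and for 18 of 25 probe sets, while it was lowest for 24.6% of all genes. Its median deviation from the group mean was -0.74 for the 9 genes and -0.04 for all genes. The highest line was replicate 4 for 5 of the genes and replicate 5 for 4. As only 1 line carried Actin-EGFP, line and transgene cannot be told apart. The fibroblast marker sum of replicate 3, 4680, lay between those of the other lines, which were 2069, 7422, 2433 and 4448 in replicates 1, 2, 4 and 5.

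Among the E14 arrays, replicate 3 was lowest for 8 of the 9 genes, with a median deviation of -0.45 for the 9 genes and -0.08 for all genes. Pdk1 was the exception, where replicate 3 was the highest at 12.74. E14 replicate 3 also differed in MYC factors, with a Myc signal of 10.36 against 6.21 and 6.63 in replicates 1 and 2 and a Mycn signal of 12.96 against 10.98 and 10.60. Whether these differences are related was not tested.

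**Figure D5:**
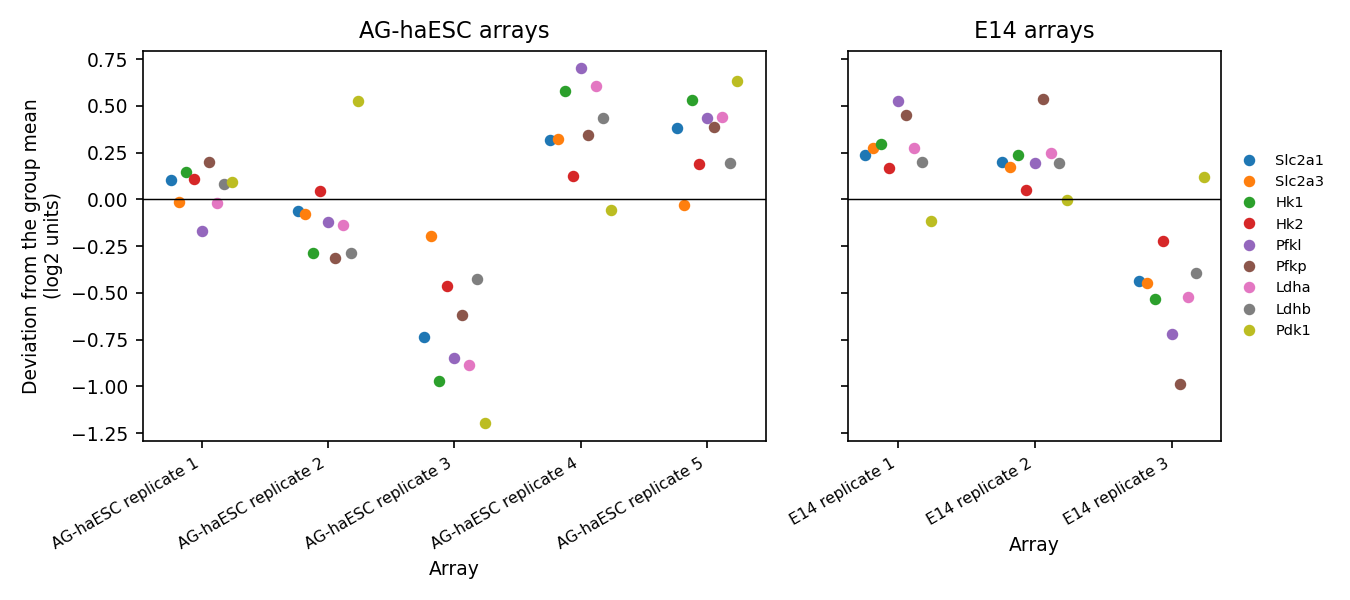
Deviation of each gene's log2 signal from its group mean (vertical axis, brightest probe set, 1 colour per gene) in the AG-haESC arrays on the left and the E14 arrays on the right. All 9 genes lie below the mean in AG-haESC replicate 3, and 8 of 9 do so in E14 replicate 3, Pdk1 being above it.

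The rest of the pathway was described by lists of related genes, counted on their brightest probe sets. Over all genes, 4.38% were called higher and 3.61% lower in AG-haESC than in E14. Against MEF the shares called higher and lower were 19.6% and 22.5% in AG-haESC, and 20.8% and 21.1% in E14. Of 11 other glucose transporters and hexokinases measured, 1 was called higher in AG-haESC than in E14, the sodium-coupled transporter Slc5a1. It was at least 2.80-fold higher, with 8.66, 7.86, 7.79, 5.09 and 8.22 in AG-haESC and 5.24, 5.80 and 4.86 in E14, all E14 arrays being below their medians. Slc5a1 passed the filter on dim signals only through AG-haESC arrays, so the filter favoured a higher AG-haESC signal. Replicate 4 lay among the E14 arrays, and the call (adjusted p = 0.048) was lost without any array other than AG-haESC replicate 4, with adjusted p from 0.0811 to 0.124. It was also lost with no filter (0.0641), no trend (0.0796) or those groups alone (0.0673). Against MEF, AG-haESC had 2 called higher and 4 lower, and E14 2 higher and 3 lower. The transporters Slc2a10 and Slc2a13 were lower in AG-haESC than in MEF by at least 5.27-fold and 3.29-fold, with Slc2a13 also at least 3.11-fold lower in E14 than in MEF. Both passed the filter only through the MEF arrays, so the filter favoured a higher MEF signal.

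Of 17 other glycolytic enzymes measured, Eno3, the muscle enolase, was the 1 called lower in AG-haESC than in E14 and none was higher. Its difference of -1.01 ± 0.25 (adjusted p = 0.0228) sat at the 2-fold limit, and leaving out E14 replicate 1 or 3, or AG-haESC replicate 3 or 5, ended the call, as did quantile normalization (-0.97), a pseudocount of 32 (-0.90) and array weights (-0.84). Without E14 replicate 3, 3 others were called lower in AG-haESC, the aldolase Aldoc at -2.74 (adjusted p = 0.0179), Ldhc at -1.70 (0.0167) and Eno2 at -2.88 (0.0299), where all arrays gave -1.87 (0.121), -1.26 (0.0723) and -1.88 (0.184). Leaving out this array also raised the calls over all 13251 genes, in either direction, from 1060 to 1308. Ldhc was also called without AG-haESC replicate 4 (-1.48, adjusted p = 0.0356). Eno2 lay below the median in every AG-haESC array, so the size of its differences from E14 cannot be read. The median difference of the 17 was -0.44, against -0.08 over all genes. Against MEF, Eno3 was lower in both, with -2.66 ± 0.29 in AG-haESC and -1.65 ± 0.31 in E14. The part in this of the muscle markers, which summed to 4785 to 5127 in MEF and 223 to 635 in the stem cells, was not tested. The neuronal enolase Eno2 was at least 7.62-fold lower in AG-haESC than in MEF. Ldhc, the lactate dehydrogenase known from testis, was at least 1.72-fold higher in AG-haESC and at least 4.12-fold higher in E14 than in MEF, where it lay below the medians, and with a floor at the array medians the AG-haESC difference was 0.78 (adjusted p = 0.173). The pyruvate kinase gene Pkm was higher in E14 than in MEF by 1.15 ± 0.21 (adjusted p = 0.000785), and in AG-haESC by 0.81 ± 0.19 (adjusted p = 0.00414), under 2-fold.

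Among 11 measured regulators of glycolytic flux, Trim63, a muscle ubiquitin ligase, was called lower in AG-haESC than in E14, with -1.47 ± 0.35 (adjusted p = 0.0201), lost without E14 replicate 1 (0.101) or 2 (0.0644). No other was called with all arrays, but without E14 replicate 3 the difference of Tigar went from 0.73 (adjusted p = 0.0967) to 1.10 (adjusted p = 0.0045), a call, and without AG-haESC replicate 5 that of Mlxipl, which encodes the glucose-responsive factor ChREBP, went from -1.11 (0.142) to -1.43 (0.0431). Against MEF, 3 were called higher in AG-haESC and 4 in E14, and none lower. Of all genes, 19.6% and 20.8% were called higher and 22.5% and 21.1% lower. Tigar, a phosphatase that lowers fructose 2,6-bisphosphate, was higher by 3.30 ± 0.30 in AG-haESC and 2.57 ± 0.33 in E14. Arrdc4, a target of the glucose sensor MondoA, was higher by 1.52 and 1.85. Of 6 lactate and pyruvate carriers, none was called between the stem cell groups. Slc16a1, the monocarboxylate carrier MCT1, had a difference of -0.02 there (95% interval -0.34 to 0.31) and was higher than in MEF by 1.93 ± 0.17 in AG-haESC and 1.94 ± 0.19 in E14. The carrier Slc16a7 was lower than in MEF, by at least 1.42-fold in AG-haESC and 1.34-fold in E14. These calls were lost without MEF replicate 2, for E14 also without MEF replicate 1, and with a floor at the array medians (-0.50 and -0.42). Slc16a7 passed the filter on dim signals only through the MEF arrays, so the filter favoured a higher MEF signal.

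The pyruvate dehydrogenase complex, which Pdk1 inhibits, differed between the stem cell groups at Pdha1. This X-linked gene of the catalytic subunit read 13.16, 13.21, 13.44, 13.36 and 13.17 in AG-haESC, 12.12, 12.01 and 12.48 in E14, and 12.31 and 12.25 in MEF. AG-haESC lay above all other arrays, by 1.06 ± 0.12 over E14 (2.09-fold, adjusted p = 0.000232) and 0.99 ± 0.14 over MEF (adjusted p = 9.46e-05), the last under 2-fold, and without E14 replicate 2 the first was 0.97 and also under 2-fold. None of the other 11 genes of this list was called between AG-haESC and E14. X-linked genes as a whole lay higher in AG-haESC, with a median difference from E14 of 0.69 over 465 genes, against -0.09 over 12757 autosomal genes. The kinase Pdk3, also X-linked, read 11.12 to 11.89 in AG-haESC and 9.97 to 11.00 in E14, and was called higher in AG-haESC than in MEF (1.07 ± 0.27, adjusted p = 0.00637), which was not made without MEF replicate 1 (adjusted p = 0.052), without AG-haESC replicate 4 (0.96) or with array weights (0.99). The other X-linked genes of the lists were Pgk1, with 13.92 to 14.73 in AG-haESC and 14.02 to 14.63 in E14, and Tktl1, with 7.89 to 9.29 and 5.60 to 9.16. Pdhb, the partner subunit of Pdha1, was higher than in MEF by 1.42 in AG-haESC and 1.02 in E14, where quantile normalization (0.94), array weights (0.93) and leaving out E14 replicate 3 (0.89) or MEF replicate 1 (0.94) took it under 2-fold.

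In the pentose phosphate pathway, which branches off after hexokinase, Pgls was called lower in AG-haESC than in E14 among 9 genes measured, and none was higher. Pgls, 6-phosphogluconolactonase, read 10.39, 10.29, 9.82, 9.59 and 10.42 in AG-haESC and 11.75, 11.79 and 11.29 in E14. The groups did not overlap, the difference was -1.51 ± 0.21 (2.84-fold, adjusted p = 0.000893), and the call held with any array left out. In MEF it read 12.06 and 11.95. Of 13 genes of gluconeogenesis and glycogen, Pygb, the brain-type glycogen phosphorylase, was called higher in AG-haESC, at 10.31, 10.13, 10.02, 10.20 and 10.08 against 8.91, 8.88 and 8.13 in E14. Its difference was 1.51 ± 0.19 (2.84-fold, adjusted p = 0.000447), with no overlap, and leaving out any array did not end the call. Without E14 replicate 3, Pgm1 and Gbe1 of this list were called lower in AG-haESC, at -1.80 (adjusted p = 0.00382) and -1.20 (adjusted p = 0.0346), against -0.80 (0.426) and -0.78 (0.199) with all arrays. Calls over all 13251 genes, in either direction, then numbered 1308 against 1060. Pck2, the mitochondrial phosphoenolpyruvate carboxykinase, was lower than in MEF, at -2.54 in AG-haESC and -3.13 in E14.

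HIF factors and their targets outside glycolysis had 23 genes measured, of which 1 was called between the stem cell groups. This was Arnt, the partner of the HIF alpha subunits, at 1.07 ± 0.22 higher in AG-haESC (adjusted p = 0.00806), but under 2-fold with array weights (0.80) and when either AG-haESC replicate 4 (0.97) or E14 replicate 3 (0.82) was left out. Leaving out E14 replicate 3 raised the calls over all 13251 genes, in either direction, from 1060 to 1308. It changed the count of this list from 1 higher and 0 lower to 1 higher and 6 lower. The gene then higher was Epas1, the HIF-2 alpha subunit, at 1.26 (adjusted p = 0.0129), against 0.91 (0.0766) with all arrays. Those then lower were Ero1a, P4ha1, Egln1, P4ha2, Adm and Hif3a, with differences from -2.14 for Adm (adjusted p = 0.0374) to -1.19 for Egln1 (0.0166). Epas1 (1.11, adjusted p = 0.0214) and Hif3a (-1.26, 0.0485) were also called when AG-haESC replicate 4 was left out. The list's median difference was -0.37, against -0.08 over all genes. Against MEF, 5 genes were called higher and 4 lower in AG-haESC, where 19.6% and 22.5% of all genes were. In E14, 7 were called higher and 4 lower, against 20.8% and 21.1% of all genes. Kdm3a, a histone demethylase induced by hypoxia, was higher by 2.38 ± 0.12 and 2.64 ± 0.13, and Ankrd37 by 2.69 and 2.66, while the collagen prolyl hydroxylase P4ha2 was at -2.99 and -2.05. The P4ha2 call for E14 was lost without E14 replicate 3, MEF replicate 1 or MEF replicate 2 (adjusted p = 0.103, 0.135 and 0.127) and with no variance trend (0.0679). Of 8 MYC factors, none was called between AG-haESC and E14. Mycn read 11.16 to 12.17 in AG-haESC and 10.60 to 12.96 in E14, with a difference of 0.30 (95% interval -0.65 to 1.24) that turned to -0.16 without E14 replicate 2 and was 1.02 without E14 replicate 3 (adjusted p = 0.0166), which is a call. Against MEF, Mycn was higher by 4.06 ± 0.50 in AG-haESC and 3.76 ± 0.54 in E14, and Myc was at -5.20 ± 1.06 and -3.27 ± 1.16. The Myc call for E14 was lost without any E14 array other than replicate 3 or without either MEF array, with no variance trend (adjusted p = 0.0617) and in a fit of E14 and MEF alone (0.0623), and without E14 replicate 3 the difference was -4.59 (adjusted p = 0.00115).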

How the data were processed

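Per the labels, RNA from sorted cells was labelled with biotin. The deposited intensities, 1 per probe set and array, were made by the authors with MAS5, per the submitters' processing notes. They are on a linear scale, with a 2% trimmed mean of 500 in every array, so values are relative within an array and a change in total RNA per cell cannot be seen. Of 45101 probe sets, 64 controls were left out, and of the rest 34945 named 1 gene, 932 several and 9160 none. One more probe set names Hk1 together with other genes and was not used.

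Signals were taken to log2 and fitted in R 4.3.3 with limma 3.58.1 (lmFit, then eBayes with trend), using 3 group means over all 10 arrays, which leaves 7 residual degrees of freedom. Two-sided p-values had Benjamini-Hochberg adjustment over the 27505 probe sets of each comparison. Genes were counted on their brightest probe set with 1 gene name. Where all arrays of the dimmer group lay below their medians, folds are lower bounds with that group at the medians. From each list at most 4 called genes per comparison with the largest differences could be named, or the brightest gene where none was called, and all X-linked genes. Genes of the lists that were called between AG-haESC and E14 only with an array left out were named as well, chosen by that outcome. The fit was tested on simulated data. The members and lists were chosen with earlier results of these data known. The number of arrays limits the precision. The alternatives were the normalization, floor, pseudocount of 32, filter, trend, array weights, probe set summary, fits of 2 groups, replicate block and leaving out each array.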

Additional observations from a re-analysis of the deposited data

Results flagged for a closer look

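Hk2 on 1422612_at had 1 AG-haESC line far from the rest. Replicate 3, the Actin-EGFP line, read 12.39, while the other 4 lines lay between 12.90 and 13.04. Its gap to the nearest line made up 0.775 of the range of the 5 lines, above Dixon's critical value at the 95% level. Each of the 25 probe sets was examined in this way in the AG-haESC group, and chance alone marks about 1 in 20. The line was also the lowest of the 5 for every other member on the brightest probe set. Without it, Hk2 differed between AG-haESC and E14 by -0.03, against -0.15 with it, and from MEF by 2.67, against 2.56.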

How the results depend on the processing

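Asking for a signal above the median in all 10 arrays lowered the genes called from 1060 to 530 for AG-haESC against E14, from 5572 to 3121 for AG-haESC against MEF and from 5545 to 3230 for E14 against MEF, as fewer genes were tested. Array weights raised the first to 1641 and made 1 member probe set higher in AG-haESC than in E14 and 1 lower in E14 than in MEF, where there had been 0. Averaging the probe sets of a gene left 1 of 3 members called lower in AG-haESC than in E14. Leaving out each array in turn gave 807 to 1308 genes, 2 to 3 members lower, 0 to 1 member probe sets higher and 7 to 9 lower for AG-haESC against E14. It gave 4780 to 5568 genes, 5 to 6 members and 14 to 17 probe sets higher for AG-haESC against MEF, and 4685 to 5501 genes, 7 to 8 members, 18 to 21 probe sets higher and 0 to 1 lower for E14 against MEF. The cause of these shifts was not tested beyond the filter.

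Signs that turned all belonged to differences that passed the threshold neither before nor after. For AG-haESC against E14, array weights gave -0.16 for Hk1 1420901_a_at, -0.14 for Pfkp 1430634_a_at, -0.53 for Slc2a3 1427770_a_at and -0.055 for Tktl1. Slc2a3 1437052_s_at gave 0.069 with quantile normalization and 0.0032 with averaged probe sets, and Hk1 1437974_a_at gave 0.12 with averaged probe sets. For AG-haESC against MEF, Hk1 1437974_a_at gave 0.031 with quantile normalization and 0.042 with averaged probe sets. For E14 against MEF, Hk1 1437974_a_at gave -0.079 with averaged probe sets, Pdk1 1434974_at gave 0.054 with a floor at the array median, and array weights gave 0.24 for Hk1 1420901_a_at and -0.059 for Pfkl 1453541_at.

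Differences whose sign turned when an array was left out spanned, for AG-haESC against E14, -0.23 to 0.13 for Slc2a3 1437052_s_at, -0.39 to 0.081 for 1455898_x_at, -0.60 to 0.42 for 1421924_at and -0.49 to 0.57 for 1427770_a_at. They spanned -0.40 to 0.11 for Hk1 1437974_a_at, -0.068 to 0.69 for Hk1 1420901_a_at, -0.53 to 0.23 for Pfkp 1416069_at, -0.18 to 0.095 for Slc16a1, -0.28 to 0.031 for Pgk1, -0.16 to 1.02 for Mycn and -0.25 to 1.53 for Tktl1. For AG-haESC against MEF the spans were -0.23 to 0.16 for Hk1 1437974_a_at and -0.011 to 0.35 for Hk1 1420901_a_at. For E14 against MEF they were -0.10 to 0.31 for Hk1 1437974_a_at, -0.52 to 0.24 for Hk1 1420901_a_at, -0.21 to 0.022 for Pdha1 and -0.16 to 0.32 for Pfkl 1453541_at.

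E14 and MEF share replicate numbers 1 and 2 in the labels. The deviations of same-numbered arrays from their group means had r of -0.0019 and -0.036 over 13251 genes. These values cannot show whether the numbers pair the arrays. The deviations of the MEF arrays mirror each other, and E14 replicate 3, which stood apart, enters the E14 mean. A fit with the replicate block, in which E14 replicate 3 has no partner, called 5653 genes against 5545, 8 members and 21 member probe sets higher, and its signs turned for Hk1 1420901_a_at (0.24) and Pfkl 1453541_at (-0.16). Signals under the array medians, as for Pdk1 1434974_at, limit what can be read from dim probe sets.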
